A study of Homo sapiens with 22 samples.

Results

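The clustered protocadherin genes were taken as the protein-coding GENCODE (version 44) genes of chromosome 5 whose symbols begin with PCDHA, PCDHB or PCDHG, which gave 53 of the 20033 protein-coding genes on chromosomes 1 to 22, X and Y. There were 15 members in the alpha, 16 in the beta and 22 in the gamma cluster, and all 53 lay on the plus strand. The measurements were transposon insertions from 20 Calling Cards libraries of K562, a human leukemia cell line with erythroid features. In bulk Calling Cards a piggyBac transposase inserts a donor transposon at TTAA tetranucleotides, and each insertion is read from the RNA that the transposon itself transcribes. Every library came from cells electroporated with 5 ug of the donor Barcoded-PBase-SRT-Puro and 5 ug of a helper plasmid coding for the transposase. The cells were then kept for 11 days in puromycin at 2 ug/ml, which kills cells without an expressed donor. In 10 libraries the helper was hyPBase and in 10 it was hyPBase-centrip. What sets hyPBase-centrip apart is not given in the sources used here. RNA was taken from every 3 transfections together, and nothing states that the libraries of a helper were separate cultures, so the p-values measure only the spread between libraries, which may be technical. Depth ran from 1509672 to 3596762 insertions per library. All values are for the human genome hg38.

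Clustered protocadherins are cell-surface adhesion proteins, best known in neurons, where each cell reads its own combination of them and so acquires a surface identity. In the alpha and gamma clusters each member begins with its own variable first exon, which has a promoter of its own and codes for the extracellular and transmembrane parts, and this exon is spliced to constant exons that code for a cytoplasmic domain shared by the cluster. Members of the beta cluster have no shared constant exons. The C-type members (PCDHAC1, PCDHAC2, PCDHGC3, PCDHGC4 and PCDHGC5) lie next to the constant exons and are known for a broader, less random use than the others. Unfused piggyBac transposase is known to insert often near active regulatory elements.

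The labelled cell line was checked against markers of blood and neuronal cells. Over gene bodies with at least 5 TTAA sites, the 9 erythroid markers had a median density at percentile 96.0 of 18550 protein-coding genes, and all 9 lay above the median gene. The 5 neuronal markers had a median at percentile 18.1, and 0 of 5 lay above the median gene. The 5 lymphoid markers had a median at percentile 27.2, with 2 of 5 above it.

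The target sequence itself is unevenly spread over these genes, as 2 stretches of 200 bases show. The first lies inside the variable exon of PCDHGC4 (chr5:141486222-141486421, hg38, plus strand) and holds no TTAA. The second lies in the gap between the variable exons of PCDHA2 and PCDHA3 (chr5:140799104-140799303, hg38, plus strand) and holds 2. Capitals mark TTAA in every sequence printed here.
PCDHGC4 variable exon: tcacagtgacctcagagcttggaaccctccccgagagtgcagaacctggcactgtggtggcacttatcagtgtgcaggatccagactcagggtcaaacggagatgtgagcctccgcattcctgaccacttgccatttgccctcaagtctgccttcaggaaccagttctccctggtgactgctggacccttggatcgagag
PCDHA2 to PCDHA3 gap: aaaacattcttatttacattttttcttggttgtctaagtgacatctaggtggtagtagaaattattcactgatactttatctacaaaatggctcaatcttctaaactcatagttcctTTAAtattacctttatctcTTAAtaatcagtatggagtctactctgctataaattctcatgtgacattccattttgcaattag
The GC content was 56.5% in the first stretch and 29.5% in the second. In the alpha cluster the 15 variable exons together had 2.09 TTAA sites per kb at 56.7% GC, against 9.20 per kb at 35.6% GC in the gaps between them. The gamma variable exons had 2.31 sites per kb and their gaps 7.08. The beta exons were richer, at 6.25 per kb against 8.59 in the gaps. Since the sites differ so much in number, densities below are insertions per TTAA site, either summed over the 20 libraries or per 100 sites in each library.

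The protocadherin locus received far fewer insertions per site than the 1 Mb on each side of it. The alpha interval (chr5:140786136-141012347) held 558 insertions at 1701 TTAA sites, or 0.328 per site (95% exact Poisson interval 0.301 to 0.356, counting error only). The beta interval (chr5:141051374-141249365) held 770 at 1547 sites, or 0.498 per site (0.463 to 0.534). The gamma interval (chr5:141330514-141512977) held 1066 at 928 sites, or 1.15 per site (1.08 to 1.22). Both flanks together held 60219 insertions at 10061 sites, or 5.99 per site, and the genome held 2.71 per site. Among 14064 windows of 200 kb with at least 500 TTAA sites, 6.85% were below the alpha density, 16.3% below beta and 36.7% below gamma. Thus alpha was among the sparse parts of the genome, and gamma was nearer the middle of these windows. The left flank exceeded 83.5% and the right flank 89.7% of them. Gamma was still below the 2.71 per site of the genome, and 15.5% of 18550 gene bodies with at least 5 sites were below it.

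Library by library, the alpha interval had 0.941 to 2.18 insertions per 100 sites with hyPBase (median 1.85) and 0.588 to 3.00 with hyPBase-centrip (median 1.56). The beta interval had 1.68 to 3.30 (median 2.49) and 1.42 to 3.49 (median 2.55). The gamma interval had 3.23 to 7.44 (median 5.6) and 2.16 to 8.41 (median 5.82). The flanks together had 17.2 to 33.9 (median 28.8) with hyPBase and 19.2 to 42.4 (median 31.6) with hyPBase-centrip. The highest value of any library in any of the 3 intervals was below the lowest value of any library in either flank.

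**Figure D1:**
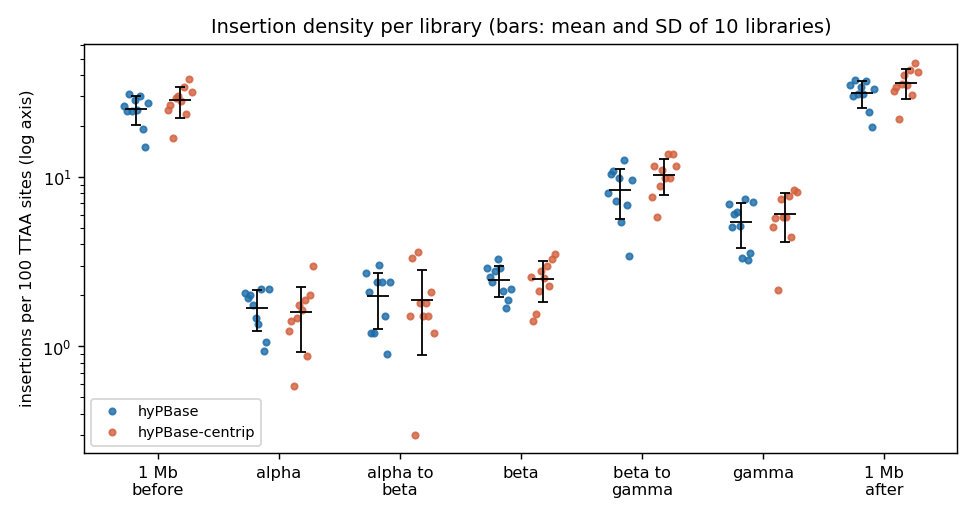
Insertions per 100 TTAA sites (log axis) in each of the 20 libraries, for the 1 Mb before the locus, the alpha, beta and gamma intervals, the gaps between them and the 1 Mb after; each point is a library, and bars are the mean and SD of the 10 libraries of a helper. All points of the 3 clusters lie below all points of the flanks, and the clusters rise from alpha (medians 1.85 and 1.56) to gamma (5.6 and 5.82).

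On the log2 scale, the ratio of the alpha density to that of the flanks in the same library was -4.07 ± 0.26 with hyPBase (SD, n = 10, 16.8-fold lower) and -4.42 ± 0.39 with hyPBase-centrip (SD, n = 10, 21.4-fold lower). The beta ratio was -3.50 ± 0.28 (11.3-fold lower) and -3.70 ± 0.29 (13-fold lower). The gamma ratio was -2.41 ± 0.31 (5.30-fold lower) and -2.45 ± 0.30 (5.47-fold lower). In each of the 6 tests all 10 libraries were below the flanks, and the two-sided exact sign-flip permutation test gave p = 0.00195 (adjusted 0.00195), the smallest that 10 libraries allow. Such a p says that the ratio repeats between libraries, not that the locus is unusual in the genome. The left flank, for example, was below the right flank in 20 of 20 libraries. Counting each position and orientation once per library, so that barcodes no longer add insertions at a site, brought the alpha ratios to -3.46 and -3.76. Insertions in the intervals also had fewer reads, at 0.810, 0.773 and 0.818 times the reads per insertion of the flanks in alpha, beta and gamma, and were below the flanks in 16, 19 and 18 of the 20 libraries. In a bulk library, fewer insertions made and fewer insertions recovered cannot be told apart, and the part of the read difference in the result was not tested. With insertions of at least 2 reads alone the alpha ratios were -4.28 and -4.66. The 50 bases on both sides of the site occurred once in the genome for 97.2%, 97% and 98.2% of the sites in alpha, beta and gamma and for 96.5% in the flanks.

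The clusters also differed from each other. Beta was denser than alpha by 0.57 ± 0.42 on the log2 scale with hyPBase (SD, n = 10, higher in 9 of 10 libraries, exact sign-flip permutation test p = 0.00586, adjusted 0.00586) and by 0.72 ± 0.45 with hyPBase-centrip (higher in 10 of 10). Gamma was denser than beta by 1.09 ± 0.47 and 1.25 ± 0.43, and denser than alpha by 1.67 ± 0.18 and 1.97 ± 0.27, in all 10 libraries of each helper. For these and for beta over alpha with hyPBase-centrip, the exact sign-flip permutation test gave p = 0.00195 (adjusted over 6 comparisons 0.00234). These pairwise tests were added after the densities had been seen.

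Along the locus the density did not change in one step. The 40 kb before PCDHA1 were already sparse, with 5 insertions at 130 sites (0.0385 per site) in the nearest 20 kb and 27 at 125 sites (0.216) in the next, and only 40 to 60 kb away did the density reach 3.46. The first 20 kb of the alpha cluster had 0.155 per site. On the other side the last 20 kb of gamma had 1.73 per site, close to the 2.01 of the next 20 kb, which hold the 3′ end of DIAPH1, a minus-strand gene for a formin that nucleates actin filaments. The rise after gamma was gradual, through 2.46, 2.77 and 3.12 per site, until 26.2 per site at 80 to 100 kb. So the left border of the sparse stretch lay outside the genes, and the right one had no sharp edge. Of the 33 other protein-coding genes in the flanks with at least 5 sites, 32 had a density above that of gamma, and their densities ran from 1.06 to 19.75 with a median of 3.86.

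**Figure D2:**
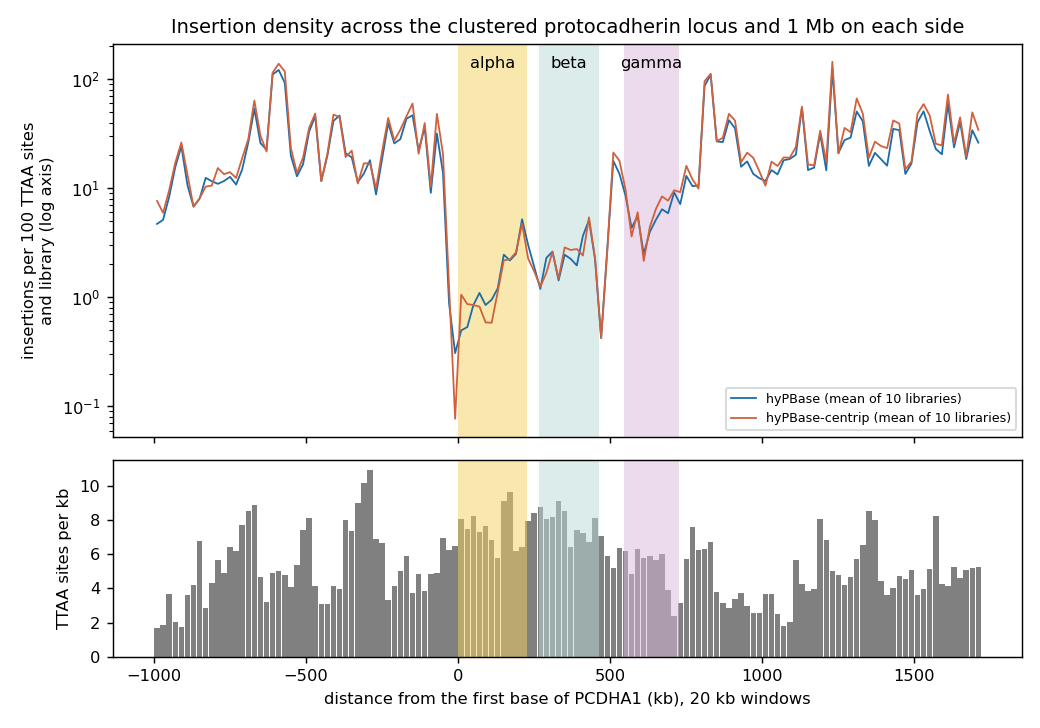
Top, insertions per 100 TTAA sites and library (log axis) in 20 kb windows from 1 Mb before to 1 Mb after the locus, as the mean of the 10 libraries of each helper; bottom, TTAA sites per kb in the same windows, with distance counted from the first base of PCDHA1. The density drops just before PCDHA1, rises across alpha and gamma and shows a peak between beta and gamma, while the number of TTAA sites does not drop over the alpha and beta clusters.

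The gap between alpha and beta had 128 insertions at 332 sites (0.386 per site), between the densities of its neighbours. The gap between beta and gamma was denser, with 936 insertions at 500 sites (1.87 per site), and was above gamma in 19 of 20 libraries. It holds TAF7, a subunit of the general transcription factor TFIID, and SLC25A2, a mitochondrial ornithine carrier, both on the minus strand. The densest of the 74 bins of 10 kb that touch the locus lay here, at chr5:141300001-141310000, with 340 insertions (7.56 per site) and at least 1 in each of the 20 libraries. The next was chr5:141320001-141330000, also in this gap, with 262 (3.16 per site), and the one after it was chr5:141330001-141340000, over PCDHGA1 and PCDHGA2, with 164 (2.78 per site). The sparsest bins were chr5:141250001-141260000, just after PCDHB15, with 4 insertions (0.0533 per site), chr5:140890001-140900000, between PCDHA13 and PCDHAC1, with 5 (0.0735), and chr5:140810001-140820000, between PCDHA4 and PCDHA5, with 8 (0.0889). Of the 74 bins, 63 were below the median of 289160 bins with at least 5 sites genome-wide (1.39 per site), and 11 were above it.

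Few sites in the locus were used repeatedly. Of 5008 TTAA sites 1496 (29.9%) had an insertion, and 874 of these had it in 1 library. Sites hit in at least 10 libraries made up 0.499% of the locus and 10.3% of the flanks. A single site of the locus was hit in all 20 libraries, at chr5:141300372 between beta and gamma, with 53 insertions, against 108 such sites in the flanks.

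Within the clusters, the variable exons were not uniformly poorer than the gaps around them. The alpha variable exons had 17 insertions at 81 sites (0.210 per site) and their gaps 328 at 1330 (0.247), a ratio of 0.851. The exons were below the gaps in 12 of 20 libraries, and 8 of the 20 had no insertion in any alpha variable exon. The beta exons had 222 at 408 sites (0.544) and their gaps 548 at 1139 (0.481), a ratio of 1.13, and the exons were below the gaps in 4 of 20 libraries. The gamma variable exons had 63 at 132 sites (0.477) and their gaps 900 at 736 (1.22), a ratio of 0.390, and they were below the gaps in all 20 libraries. Of the 3 clusters, gamma was the one with exons below gaps in every library. The exon sums of alpha and beta leaned on single members. In alpha 5 of the 17 insertions were at 1 site of PCDHAC1, and in beta 43 of the 222 were in PCDHB14. Ratios without these were not computed. The gamma gaps were themselves uneven. Of their 900 insertions, 355 lay between PCDHGA12 and PCDHGC3 (1.42 per site) and 153 between PCDHGA1 and PCDHGA2 (3.4 per site). Some other gaps were below the 0.477 of the exons, such as PCDHGB2 to PCDHGA5 (0.111) and PCDHGB4 to PCDHGA8 (0.217). The alpha ratio turned to 1.19 with insertions of at least 2 reads and to 1.18 when the exons were taken with 1 kb upstream. These are sums over members and are given with no test.

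Summed over each stretch, the 3′ ends of alpha and gamma, around the constant exons, were denser than the gaps between variable exons. In alpha, the stretch from the last variable exon through the constant introns had 194 insertions at 267 sites (0.727 per site), or 1.5 to 6.74 insertions per 100 sites per library with a median of 3.56, and was above the gaps (0.376 to 2.11, median 1.35) in all 20 libraries. The alpha constant exons had 19 insertions at 23 sites (0.826). The higher density in alpha began before this end. The gap from PCDHAC1 to PCDHAC2 had 166 of the 328 gap insertions, at 0.444 per site. The stretch from PCDHAC2 to the first constant exon had 0.457. In gamma, the corresponding stretch had 100 at 58 sites (1.72) and was above the gaps in 16 of 20 libraries. Its pieces ran from 0.611 to 2.4 per site, and the gap between PCDHGA1 and PCDHGA2 was higher, at 3.4. The gamma constant exons hold just 2 TTAA sites, with 3 insertions, too few to place them.

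Of the 53 members, 42 had at least 5 TTAA sites in the first exon, and they were compared with the first exons of all protein-coding genes with at least 5 sites. There were 575 such exons, the 42 included, with a median of 2.00 insertions per site. Of the 42 members, 41 were below that median. No insertion was found in 13 members. One of these, PCDHGC4, has no TTAA in its first exon, and so could not receive any, and the other 12 had 1 to 10 sites each. Among the 42 members with at least 5 sites, 6 (14.3%) had none, near the 10.6% of all 575 exons.

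**Figure D3:**
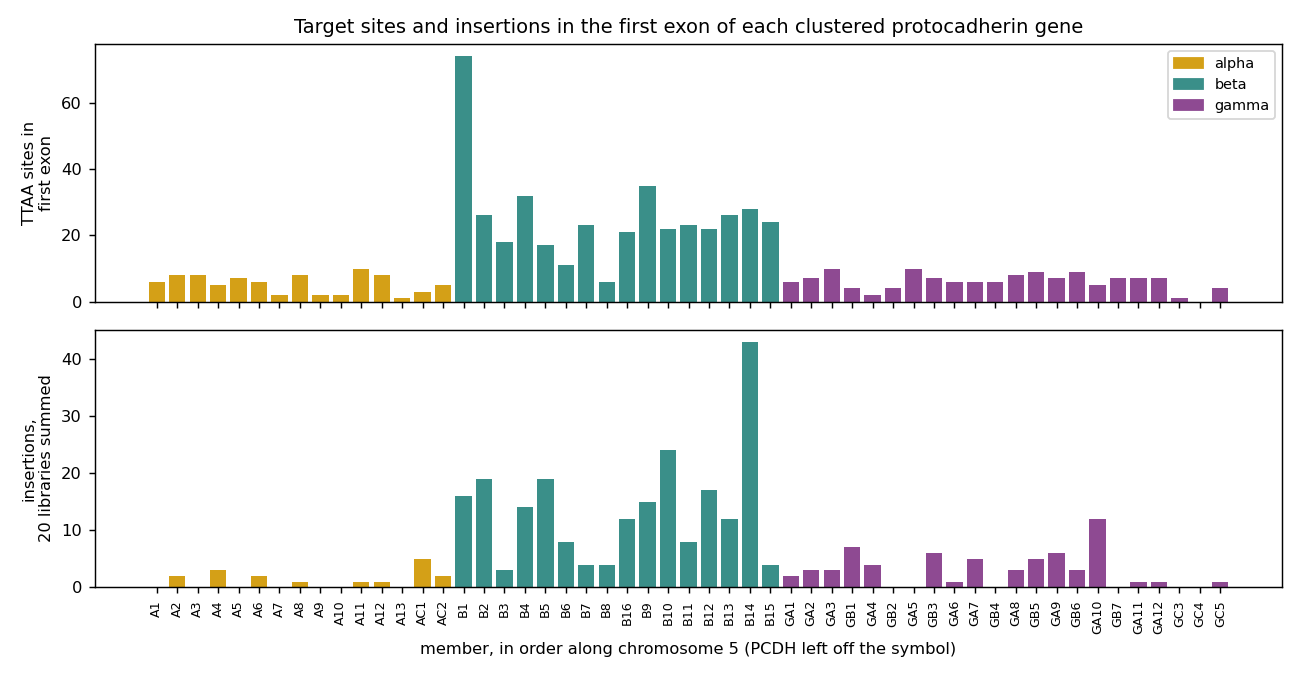
TTAA sites (top) and insertions summed over the 20 libraries (bottom) in the first exon of each of the 53 members, in their order along chromosome 5 and coloured by cluster. The beta exons hold most of the sites and insertions, PCDHB14 leads with 43 insertions, and 13 members have none.

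In alpha, counts were so low that the order of members is not resolved. PCDHA4 had 3 insertions at 5 sites (0.6 per site, exact Poisson interval 0.124 to 1.75), PCDHAC2 had 2 at 5 sites (0.4) and PCDHA6 had 2 at 6 sites (0.333). PCDHA1 (6 sites), PCDHA3 (8 sites) and PCDHA5 (7 sites) had none, which allows up to 0.5, 0.375 and 0.429 insertions per site by the limit of 3 counts. The intervals of the highest members reach below these limits, so the members cannot be ranked at this depth.

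In beta, every member had at least 3 insertions. PCDHB14 had 43 insertions at 28 sites (1.54 per site, interval 1.11 to 2.07), spread over 18 libraries with 0 to 4 (median 1) per hyPBase library and 1 to 5 (median 3) per hyPBase-centrip library. PCDHB5 had 19 at 17 sites (1.12, interval 0.673 to 1.75), and PCDHB10 had 24 at 22 sites (1.09, interval 0.699 to 1.62). PCDHB7 had 4 at 23 sites (0.174), PCDHB15 4 at 24 (0.167) and PCDHB3 3 at 18 (0.167). The members at both ends were chosen by these densities, so their distance is not tested. In PCDHB5, 14 of the 19 insertions were at 1 site, and the other 16 sites had 5 (0.312 per site).

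In gamma, PCDHGA10 had 12 insertions at 5 sites (2.4 per site, interval 1.24 to 4.19), in 8 libraries. It was the only one of the 42 members above the median of all first exons, but its interval includes that median of 2.00. Of its 12 insertions 7 were at 1 site, and the other 4 sites had 5 (1.25 per site). All 12 were on the minus strand, opposite to the gene, and 2 came from hyPBase and 10 from hyPBase-centrip libraries. PCDHGA9 and PCDHGB3 had 6 insertions at 7 sites each (0.857), also all on the minus strand. PCDHGA5 (10 sites), PCDHGB4 (6 sites) and PCDHGB7 (7 sites) had none, which allows up to 0.3, 0.5 and 0.429 per site.

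The C-type members had few sites. PCDHAC1 has 3 sites and had 5 insertions, all at 1 of these sites and all from hyPBase libraries, and 4 libraries contributed. PCDHAC2 is given above. PCDHGC3 had no insertion at its 1 site, PCDHGC4 had no site, and PCDHGC5 had 1 insertion at 4 sites. With 3, 5, 1, 0 and 4 sites, no statement on how C-type members differ from the others is possible here.

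The sites with most insertions inside first exons are printed with 13 bases on each side (hg38, plus strand), because they show where the few repeated insertions into members fell. All 5 have unique surroundings, and a site of PCDHGA10 that is not printed also had 7 insertions.
PCDHB5 (chr5:141135234-141135263, 14 insertions in 9 libraries): aactcagacgccaTTAAgctggggaatcca
PCDHB14 (chr5:141223362-141223391, 9 insertions in 6 libraries): gaaaagacaggcaTTAAaggagcttcgcct
PCDHB14 (chr5:141227128-141227157, 9 insertions in 7 libraries): ggcctagttttctTTAAatacaccgtgttt
PCDHB14 (chr5:141226025-141226054, 7 insertions in 5 libraries): tctcacagtttctTTAAaaatctttattag
PCDHGB1 (chr5:141350615-141350644, 7 insertions in 6 libraries): gtaatccaagataTTAAtgacaatgcacca
The site of PCDHB5 lies close to the start of its exon and had 8 of 14 insertions on the plus strand, while that of PCDHGB1 had 0 of 7.

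Promoters of the members had many target sites and few insertions. In the 300-base promoter windows of RefSeq (GRCh38.p14, 250 bases before to 50 after the start), at least 1 TTAA was present in 42 of 47 matched members (89.4%) and in 16178 of 35116 windows of all genes (46.1%). In the 1 kb before the first exon the members had 360 insertions at 539 sites (0.668 per site), while the other 19980 genes had 17.5 per site. Both values are sums over genes, in which densely hit genes weigh most. For first exons with at least 5 sites such a sum gave 8.43 per site, against a median of 2.00. By cluster the members had 0.313 per site upstream in alpha, 0.859 in beta and 0.827 in gamma, and 3 of 53 members had none.

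There was a small rise around the members' starts. Within 500 bp of the first base of the first exon the members had 309 insertions at 313 sites (0.987 per site), and 1 to 3 kb upstream they had 421 at 869 sites (0.484), a ratio of 2.04. In single libraries the near windows had 1.60 to 9.58 insertions per 100 sites (median 4.31) and the far windows 1.27 to 3.45 (median 2.53), and near exceeded far in 19 of 20 libraries. In the other genes, also summed over genes, the densities were 16.3 near and 9.73 far, a ratio of 1.67. Beta had the highest ratio (2.99, higher near in 18 of 20 libraries), then alpha (1.91, 12 of 20) and gamma (1.46, 14 of 20). One site upstream of PCDHB14 made up 40 of the 309 insertions, and without it the ratio over all members was 1.78 (18 of 20 libraries) and that of beta 2.14 (17 of 20). Where members lie close together, the far window reaches into the exon of the member before. The gap between PCDHGB7 and PCDHGA11, for example, is 776 bp long. The part of this overlap in the ratios was not tested.

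**Figure D4:**
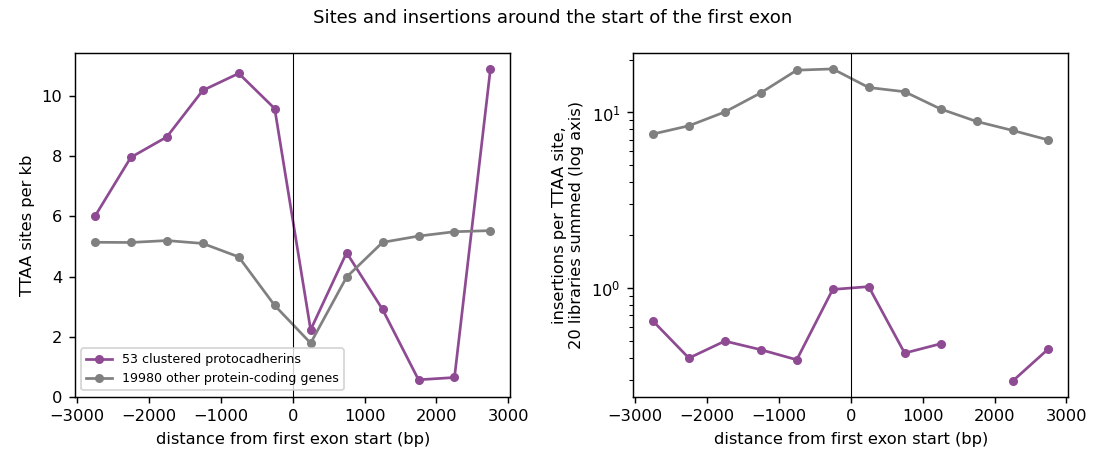
TTAA sites per kb (left) and insertions per TTAA site summed over the 20 libraries (right, log axis) in 500 bp steps from 3 kb before to 3 kb after the first base of the first exon, for the 53 members and for the 19980 other protein-coding genes. The members have 9.58 sites per kb just before the start and 0.980 insertions per site there, against 3.04 and 17.7 in the other genes; the step with 0 insertions at 15 sites, 1500 to 2000 bp after the start, has no point on the log axis.

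The 120 bases just before the exon are printed for PCDHB14, which has the most hit upstream site of the members, and for PCDHA3, which has a TTAA in the same window but no insertion (hg38, plus strand).
PCDHB14 (chr5:141223223-141223342, 40 insertions): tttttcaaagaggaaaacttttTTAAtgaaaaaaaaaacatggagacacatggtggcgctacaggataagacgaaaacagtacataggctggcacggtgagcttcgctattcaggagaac
PCDHA3 (chr5:140800937-140801056, 0 insertions): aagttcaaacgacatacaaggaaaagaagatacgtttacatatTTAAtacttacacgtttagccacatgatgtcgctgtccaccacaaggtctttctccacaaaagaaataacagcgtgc
Both windows hold 1 TTAA. The site of PCDHB14 lies 98 bp before the exon, and its 40 insertions came from 18 libraries, 15 from hyPBase and 25 from hyPBase-centrip, with 9 of 40 on the plus strand.

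Insertions in gamma lay mostly on the strand opposite to the genes. Orientation was measured as the share on the plus strand, which is the strand of all 53 members. With hyPBase, the share in gamma ran from 14.6% to 38.7% (median 27.3%) and with hyPBase-centrip from 16.7% to 42.0% (median 26.9%), so all 20 libraries were below 50%. The difference from 50% was -23.0 ± 8.14 percentage points for hyPBase and -21.8 ± 8.19 for the other helper (SD, n = 10 each, two-sided exact sign-flip permutation test p = 0.00195, the smallest that 10 libraries allow, adjusted 0.00586, below 50% in 10 of 10). Alpha and beta had 43.5% and 43.6% on the plus strand when libraries were summed, and gamma 26.7%. Gamma was below alpha in 19 and below beta in 17 of the 20 libraries.

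In alpha the difference from 50% was -4.66 ± 8.65 points with hyPBase (n = 10, exact sign-flip permutation test p = 0.133, adjusted 0.159, below in 5 of 10) and -9.44 ± 9.85 with hyPBase-centrip (p = 0.00977, adjusted 0.0195, below in 9 of 10). In beta it was -11.3 ± 10.9 with hyPBase (p = 0.0156, adjusted 0.0234, below in 9 of 10) and -1.18 ± 9.55 with hyPBase-centrip (n = 10, exact sign-flip permutation test p = 0.711, adjusted 0.711, below in 5 of 10). Each of these clusters thus passed the threshold with 1 helper and not with the other, and neither call remained with insertions of at least 2 reads (adjusted exact permutation p = 0.188 for alpha and 0.0625 for beta).

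**Figure D5:**
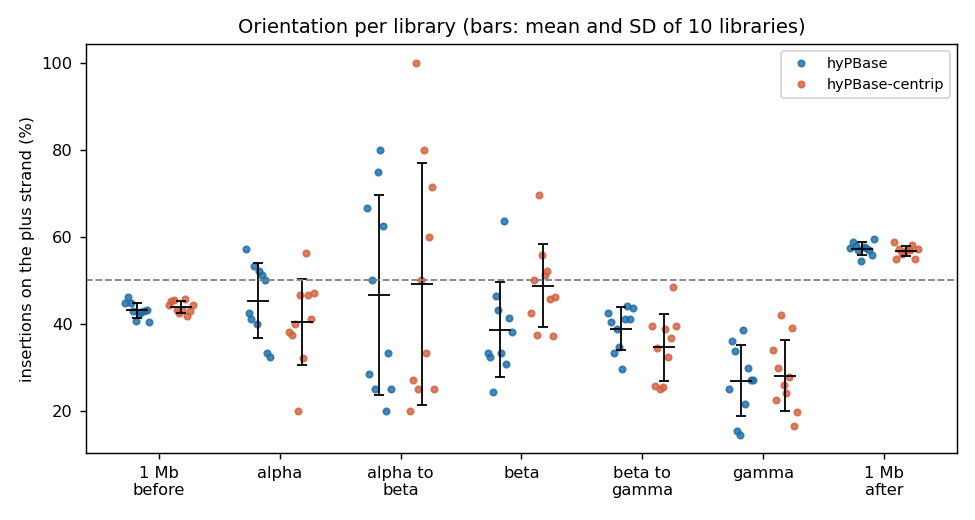
Percent of insertions on the plus strand, the strand of all 53 members, in each of the 20 libraries for the flanks, the 3 clusters and the gaps between them; bars are the mean and SD of the 10 libraries of a helper and the dashed line marks 50%. All points of gamma and of the gap before it lie below the line, whereas alpha and beta spread across it.

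A share below 50% is common in genes. Among 10801 other genes with at least 100 insertions the median share on the gene's own strand was 32.0%, and 37.7% of them were below gamma, 76.6% below alpha and 76.9% below beta. So gamma was near the middle of these genes, and alpha and beta were nearer to an even split than most. The beta interval is not a gene body, however, since 548 of its 770 insertions lay in the gaps between its members. Within gamma the summed share was lowest in the constant introns, with 7 of 100 insertions on the plus strand (7%, exact binomial interval 2.86 to 13.9%). It was 7 of 63 in the variable exons (11.1%, 4.59 to 21.6%) and 269 of 900 in the gaps (29.9%, 26.9 to 33.0%). Single gaps differed, with 0 of 35 between PCDHGA10 and PCDHGB7 and 1 of 21 between PCDHGB1 and PCDHGA4. The 2 gaps with most insertions had 126 of 355 (PCDHGA12 to PCDHGC3) and 54 of 153 (PCDHGA1 to PCDHGA2). A difference between these classes was not tested. In the gap between beta and gamma the plus-strand share was 36.8% and below 50% in all 20 libraries. The 2 genes of this gap are on the minus strand, so there the plus strand is opposite to the genes. TAF7 had 58.7% of its insertions on its own strand, above the median of 32.0%.

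The helper made no difference that passed the tests. The alpha ratio to the flanks was lower with hyPBase-centrip by 0.35 on the log2 scale (difference -0.35, mean ± 2 SE -0.65 to -0.05, two-sided permutation test p = 0.0307, adjusted over 6 comparisons 0.122). For beta the difference was -0.20 (-0.45 to 0.06, permutation p = 0.135, adjusted 0.271) and for gamma -0.05 (-0.32 to 0.23, permutation p = 0.735, adjusted 0.748). The share on the plus strand differed by -4.78 points in alpha (-13.1 to 3.51, adjusted permutation p = 0.401), by 10.1 in beta (0.926 to 19.3, permutation p = 0.0407, adjusted 0.122) and by 1.17 in gamma (-6.13 to 8.47, adjusted permutation p = 0.748). These intervals leave room for sizeable differences.

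For single members the helper comparison had little depth. Over the first exons of all protein-coding genes with 1 kb upstream, 6388 had at least 40 insertions and edgeR's quasi-likelihood test called 32 of them, 0.501% (0.172% higher and 0.329% lower with hyPBase-centrip). Of the members, only PCDHB14 had enough insertions to be tested, with 86. Its log2 fold change was 0.61 (SE 0.30) higher with hyPBase-centrip (edgeR p = 0.0468, Benjamini-Hochberg adjusted p = 0.403), so no member was called. For PCDHGA10, PCDHAC1 and PCDHB10, whose insertions were unevenly split between the helpers, the numbers were too small for this test. Over 215649 bins of 10 kb with at least 40 insertions edgeR called 418, 0.194% (0.0408% higher and 0.153% lower with hyPBase-centrip). Of the 74 bins of the locus 31 were tested and 0 were called. Of these 31, 0 had an unadjusted edgeR p under 0.05, against 17005 of all 215649 bins. The smallest adjusted p was 0.657, and DESeq2 gave no adjusted p for any of them. Their median log2 fold change was -0.09, with 10 of 31 higher with hyPBase-centrip, and that of all bins was -0.00. With no filter on insertions, 4 of the 74 locus bins had an unadjusted edgeR p under 0.05, against 20090 of all 280430 bins. Of the 53 members 3 did so, against 1242 of 15784 first exons, and 0 members and 0 locus bins were called.

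The 12 non-clustered protocadherins are single genes of the same family outside the 3 clusters. PCDH1 and PCDH12 lie in the flank after the locus and so are also part of the comparison above. The gene-body density of the 12 had a median of 0.526 insertions per site and a highest value of 3.37, in PCDH12, and 2 of 12, PCDH12 and PCDH9, were above the median gene (3.25 per site). Against the same 18550 gene bodies, 4.14% were below the alpha, 6.15% below the beta and 15.5% below the gamma interval. The beta interval is not itself a gene body, as it includes the gaps between its members. The median of the non-clustered members stood at percentile 6.61. Of 14 chromatin and architecture regulators known to act on the clusters, 9 were above the median gene, and of 3 binding partners of the shared cytoplasmic domains, 2 were. edgeR called 0 of the 8 erythroid, 7 regulator and 2 partner first exons tested between helpers.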

How the data were processed

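Per the labels and the paper, K562 cells were electroporated and selected, and transposon transcripts were reverse transcribed, amplified by PCR, tagmented and sequenced. The submitters' processing notes name Trimmomatic, BWA, SAMtools and hg38, and filters on insertions are not given in the sources used here. The authors deposited 1 qbed file per library, with a line per insertion giving its position, the raw, unnormalized count of reads, its orientation and its barcode. An insertion is seen only if its transposon is transcribed and its cell survives selection, and losses of that kind were not tested. Intervals cover counting error only, since PCR reads are not independent molecules.

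Each line was counted as an insertion (52154230 in all, 1509672 to 3596762 per library). Of these, 52121915 were on chromosomes 1 to 22, X and Y. All of those lay on TTAA, of which these chromosomes held 19214674. Lines on other sequences were not checked for TTAA and entered no density. For 2 further libraries the title and description name different helpers, and they were not analysed here. A cluster interval ran from the first to the last base of its members' exons, the flanks were 1 Mb on each side, and the first exon was that of the Ensembl canonical transcript. Densities and strand shares were compared by exact sign-flip permutation tests within a helper and by permutation tests with 100000 resamples between helpers. Counts of insertions in first exons and 10 kb bins were compared with edgeR 4.0.16 (R 4.3.3, TMM, quasi-likelihood, adjusted p below 0.05, at least 40 insertions), and DESeq2 1.42.0 was an alternative. Python 3.11.15, numpy 2.4.6, scipy 1.17.1 and matplotlib 3.10.9 were used. On simulated counts with 200 changed features, edgeR recovered 135 first exons of 6388 and 78 bins of 215649 at a 2-fold change. The bins fell short of the 90 of the 100 denser ones first required (73), so a 4-fold change was added and the requirement moved to it, where 100 were recovered. Members were named as the 3 densest and 3 sparsest of each cluster with at least 5 sites, the C-type members, members called by edgeR, the 3 densest and 3 sparsest bins and the 5 most hit sites in first exons. The members, lists and tests were chosen with earlier results of these data known. PCDHGC4, the PCDHA2 to PCDHA3 gap and the 2 upstream windows were printed after their values were seen.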

Additional observations from a re-analysis of the deposited data

Results flagged for a closer look

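Among 18 groups of 10 libraries in which the lowest and highest values were checked, 2 held a library far from the others, where chance gives about 1 in 20. In beta, hyPBase-centrip replicate 2 had the lowest log2 density ratio to the flanks, -4.40, with the next at -3.91. In gamma, hyPBase-centrip replicate 3 had the lowest ratio, -3.16, with the next at -2.60. Without replicate 2 the mean beta ratio of hyPBase-centrip was -3.62, and without replicate 3 the mean gamma ratio was -2.37, each still below the flanks in the remaining 9 libraries (exact sign-flip permutation test p = 0.00391, the smallest that 9 libraries allow). These omissions were chosen after seeing the data.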

How the results depend on the processing

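The density ratios of the clusters to the flanks kept their direction and side of the threshold in all 42 alternatives run (-4.66 to -1.88), and the 18 alternatives for one cluster against another did so too (0.53 to 2.01). The ratio of variable exons to gaps moved by less than the spread between libraries in its 12 alternatives, though in alpha it turned from 0.851 to 1.19 with at least 2 reads and to 1.18 with 1 kb upstream (cause not tested). It stayed between 1.09 and 1.49 in beta and between 0.393 and 0.513 in gamma. With at least 2 reads per insertion the strand difference was -7.42 points in alpha with hyPBase-centrip and -13.9 in beta with hyPBase, both past the threshold no longer. Of the differences between helpers, which passed nowhere, that of gamma changed sign 4 times, near 0 each time: the plus-strand share to -0.867 with at least 2 reads, and the density to 0.0219 with barcodes collapsed, 0.0065 with flanks of 500 kb and 0.0318 without hyPBase-centrip replicate 3. edgeR called 32 first exons, but 0 with barcodes collapsed (39 at an unadjusted p under 0.05) and 21 with no filter, and DESeq2 called 21. It called 418 bins, but 236 with at least 2 reads and 0 with barcodes collapsed (9583 at an unadjusted p under 0.05). In none of these was a member or a bin of the locus called, and DESeq2 gave no adjusted p for the locus. The cause of these changes was not tested, apart from fewer insertions being left when barcodes are collapsed or reads required. With the replicate number as a replicate block edgeR called 33 first exons and 376 bins, 30 and 350 of them also called without it. Same-numbered libraries had correlations of -0.021 to 0.034, and 2 of 10 correlated best with their own number. This cannot show whether the numbers mark a shared culture or batch, since insertions of separate transfections need not deviate together. Depth limits single members, since 1 of 53 had enough insertions to be tested.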
